A study of Drosophila melanogaster with 2 samples.

Results

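CG5953-eGFP had 648 intronic peaks, at 622 separate loci, with summits more than 2000 bp from every annotated transcription start site (TSS). These far intronic peaks are described here. They are members of the conservative list, the peaks that the authors kept from both libraries together, and make up 648 of its 3015 peaks on the chromosome arms (21.5%, exact 95% interval 20.04 to 23.003). A peak was chosen by the position of its summit alone: inside a gene, in no annotated exon of any gene, and more than 2000 bp from the nearest TSS. The assay was chromatin immunoprecipitation with sequencing (ChIP-seq), in which DNA bound by a protein is pulled down with an antibody and sequenced. The flies carried an insertion that makes CG5953, a gene known by its annotation number, as a fusion to enhanced green fluorescent protein (eGFP), and the antibody was raised against GFP. Both libraries came from whole embryos collected over a 24 h window that started at 0 h, so all embryonic tissues and stages were mixed, and no comparison between conditions exists. A peak list holds no reads, so the depth of the libraries is unknown. No library of untagged embryos or of input DNA was analysed here.

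Introns are cut out of a transcript before it becomes a mature messenger RNA. In Drosophila, long introns of developmental genes hold many enhancers, which are stretches of DNA that bind transcription factors and raise or shape transcription from a promoter at a distance. Binding far from a promoter is therefore a common property of sequence-specific regulators, and a peak marks where the tagged protein or its complex was cross-linked to DNA, not what it does there.

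The DNA under some of the strongest far intronic peaks is shown for its base composition and for the words that recur in it. Other peaks had these words too. A single chromosome arm was left out of the choice, and it held peaks stronger than those shown in Raf. Each sequence takes in the summit and 50 bases to either side, on the plus strand of the Release 6 genome from RefSeq (dm6). Capitals mark the words that are described with their counts further on. The strongest peak, in CG32486 (chr3L:3060748-3060848), carried the word GTCAATA, while the peaks in Tlk (chrX:3742184-3742284) and the 2 in Raf (chrX:2300669-2300769 and chrX:2297675-2297775) carried none of the marked words. The peaks in S (chr2L:1072330-1072430) and Septin4 (chrX:16691611-16691711) were the strongest outside that arm with a forkhead-type site and with CAGTGCA within 50 bp. Further from the summit, the stronger peaks in ush and aop had CAGTGCA too, on the other strand of their sites printed below.
CG32486: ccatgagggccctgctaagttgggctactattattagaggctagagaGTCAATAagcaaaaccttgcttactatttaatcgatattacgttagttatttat
Tlk: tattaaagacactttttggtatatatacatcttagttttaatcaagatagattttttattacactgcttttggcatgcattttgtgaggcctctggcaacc
Raf, first: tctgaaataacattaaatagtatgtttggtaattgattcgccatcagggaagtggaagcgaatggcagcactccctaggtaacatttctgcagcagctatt
Raf, other: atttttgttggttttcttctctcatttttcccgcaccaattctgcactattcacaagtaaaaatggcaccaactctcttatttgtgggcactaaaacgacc
S: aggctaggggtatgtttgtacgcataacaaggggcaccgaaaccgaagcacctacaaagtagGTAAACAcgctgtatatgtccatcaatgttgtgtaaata
Septin4: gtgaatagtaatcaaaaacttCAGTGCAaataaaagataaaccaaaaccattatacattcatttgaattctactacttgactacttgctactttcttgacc

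A further set shows the word CACTGAG (capitals) beside 6 summits that had it within 100 bp. These were the strongest such summits outside the chromosome arm that was left out above. Each site is read along the strand on which the word is spelled that way. The sites lay in CG6959 (chr3R:11849893-11849921), aos (chr3L:16480634-16480662), ush (chr2L:520741-520769), aop (chr2L:2163715-2163743), bves (chrX:21059094-21059122) and CG42342 (chr3R:16524221-16524249). They are shown for the A-rich stretch that follows the word, and were chosen after its values were seen. The next sites by signal in the same choice, in Myo10A and CG34417, lacked the run AAA in the stretch counted further on. The printed sites therefore do not show how often that run follows the word.
CG6959: tatgcaggCACTGAGagaaaaaaagtgcg
aos: agtggctaCACTGAGcaaagttctttagt
ush: gacttatgCACTGAGagaaatatttttta
aop: acgtgatgCACTGAGagaaatcaggttta
bves: aataatcaCACTGAGagaaaatcctgtat
CG42342: gtgggaaaCACTGAGaaaaaaaattgttc

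Far intronic peaks were fewer than the share of the genome open to them. Bases that met the same rule made up 42.4 Mb, or 30.8% of the 137.5 Mb of the arms, so the peaks were 0.697 times as frequent as that share. They stood at 15.3 per Mb. Intronic summits between 500 and 2000 bp from a TSS (near intronic, 430 peaks) stood at 37.8 per Mb, summits within 500 bp of a TSS (promoter, 1365 peaks) at 75.9 per Mb, and intergenic summits at 10.4 per Mb. In the replicates' own lists, the far intronic share was 21.1% (416 of 1975 peaks) in replicate 1 and 18.3% (303 of 1660) in replicate 2, or 19.7% ± 1.99 (SD, n = 2). By arm, 2L held 131 peaks (20.1 per Mb of far intronic territory), X 147 (18.3), 3L 128 (15.8), 2R 99 (13.9) and 3R 143 (12.7). None lay on chromosome 4, which has 0.442 Mb of such territory, or on Y. Only 1 summit lay in an annotated transposable element (0.154%), while such elements cover 8.19% of the territory. Repeats limit how reads can be placed, and the part this played was not tested.

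Beyond 5 kb, density fell with distance from the start sites. Between 2 and 3 kb from the nearest TSS there were 22.7 peaks per Mb of intron, and between 3 and 5 kb 23.1. The density was 19.2 per Mb between 5 and 10 kb, 11.5 between 10 and 20 kb, and 3.83 beyond 20 kb, where 37 peaks lay. Replicate 1's own list went from 15.04 per Mb in the nearest class to 2.80 beyond 20 kb, and replicate 2's from 9.96 to 1.97. Repeat-masked sequence made up 19.8% of the nearest class of introns and 34.3% of the class beyond 20 kb. On the 5 large arms and outside masked sequence, the densities in the same order were 24.2, 23.3, 20.3, 11.9 and 4.39 per Mb. The median distance was 5362 bp (quartiles 3356 and 8825), and the farthest summit lay 49827 bp from a TSS. Signal did not follow distance among the members: Spearman's rank correlation was −0.01 over the 648 peaks, which share 2 libraries. Just inside the limit, the 70 intronic peaks at 2000 to 2500 bp had a median signal of 75.3, and the 92 at 1500 to 2000 bp, just outside it, had 85.2.

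**Figure D1:**
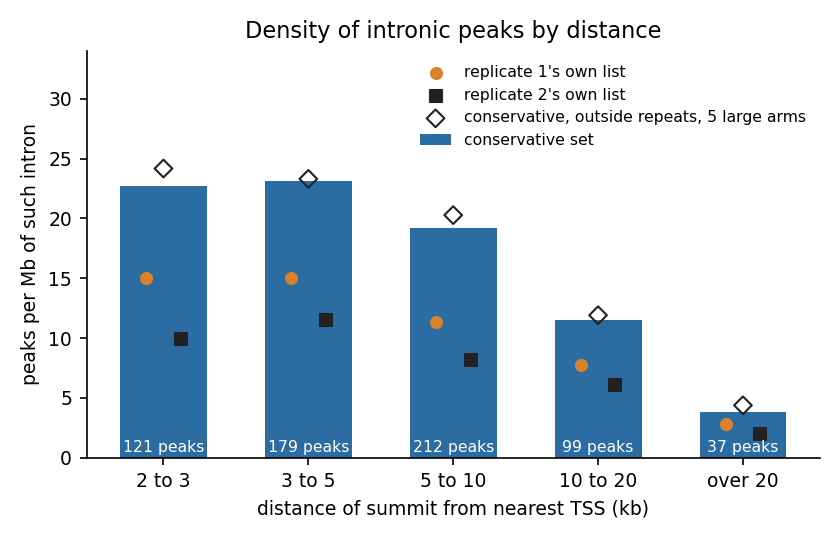
Far intronic peaks per Mb of intron in classes of distance from the nearest TSS (kb). Bars are the conservative set with the number of peaks inside, circles and squares are the own lists of replicates 1 and 2, and open diamonds count only unmasked sequence on the 5 large arms. The bars fall from 22.7 per Mb at 2 to 3 kb to 3.83 beyond 20 kb, and both replicates fall too.

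Far intronic peaks were weaker than near intronic and promoter peaks. The authors' signal value, whose unit the sources used here do not give, had a median of 78.2 (quartiles 63.4 and 108) in far intronic peaks, against 88.1 in near intronic and 88.3 in promoter peaks. Intergenic peaks had a median of 76.8 and exonic peaks one of 65.03, which were not tested against far intronic peaks. Of the far intronic peaks, 110 of 648 (17.0%) were in the highest quartile of all peaks, at or above a signal of 123.5. The share was 27.9% (120 of 430) in near intronic peaks and 31.1% (424 of 1365) in promoter peaks. Both differences passed a two-sided Fisher's exact test, with p-values adjusted over 4 such tests of 5.5e-05 and 3.2e-11. These p-values rest on the number of peaks, all from the same 2 libraries, and do not measure the spread between embryos. The differences were also seen in each replicate's own list with that list's own signal, at 13.8 and 13.5 percentage points in replicate 2 and 11.5 and 17.7 in replicate 1. Among the 100 strongest peaks of any kind, 8 were far intronic, and among the top 25 there was 1.

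Far intronic peaks passed the threshold in both libraries separately less often than near intronic and promoter peaks. A peak overlapping by at least 1 bp was present in both replicates' own lists for 225 of 648 (34.7%, exact 95% interval 31.1 to 38.5), against 43.02% of near intronic peaks and 43.96% of promoter peaks (adjusted p = 0.0071 and 0.00011, Fisher's exact test). It was 33.9% of intergenic and 19.8% of exonic peaks, with no test. A further 121 were in replicate 1's list alone, 60 in replicate 2's alone, and 242 in neither. The own lists hold only peaks above a threshold. In the longer ranked lists of the replicates, 644 of the 648 had a signal in both libraries. The share in both own lists moved with signal. In the highest quartile it was 98.2% in far intronic peaks (108 of 110), with 114 of 120 near intronic and 403 of 424 promoter peaks. In the lowest quartile it was 1.66%, 2.38% and 1.39% in the same order. Among peaks at or above the median signal, the differences were 0.959 and 3.68 percentage points and no longer passed the same exact test, with adjusted p of 0.84 and 0.31. Strong members were most often in both lists, with all of the top 20 and 98 of the top 100 far intronic peaks. The signal is close to the sum over the 2 libraries, so this is partly built in. It does not measure repeatability apart from signal.

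The signal of a member was close to the sum of its signals in the 2 libraries, at a median of 1.00 times that sum. Where both libraries had a value (644 of 648), replicate 1 was higher in 400, the median ratio of replicate 1 to replicate 2 was 1.10, and 31 peaks differed by more than 2-fold. Spearman's rank correlation between the libraries was 0.560 across these peaks, which had been kept by the authors for ranking alike in both. Peaks could also crowd: 54 members (8.33%) overlapped another conservative peak, and all 25 members with a signal under 20 were among them. The 648 peaks made 622 separate loci.

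**Figure D2:**
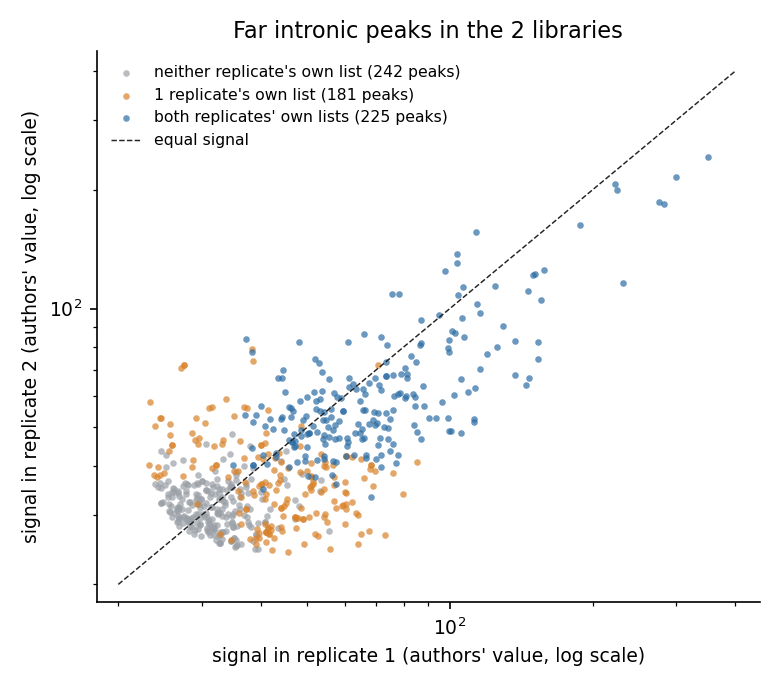
Signal of far intronic peaks in replicate 1 and replicate 2 (authors' values, log scale on both axes), coloured by whether a replicate's own list holds the peak. The 225 peaks in both lists lie at the upper right, and the 242 in neither lie in the lower left.

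The 20 strongest far intronic peaks are named with their hosts. The leading one, in CG32486, had a signal of 586, from 350 in replicate 1 and 243 in replicate 2, and it ranked 24 among all peaks. Tlk, which encodes the Tousled-like kinase of chromatin assembly, followed with 510, from 300 and 215. A peak on 2R inside the nested genes CG46321, CG12912 and Hr3 had 463, from 275 and 186; Hr3 is a nuclear receptor of the ecdysone response. CG12769, also on 2R, had 462, from 283 and 184. In all 4, replicate 1 was above replicate 2.

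Raf, the kinase that passes the signal from Ras to the MAP kinase cascade, held the next 2 peaks, with signals of 431 (223 and 207) and 427 (225 and 199). Hr4, an ecdysone-responsive nuclear receptor, had 1 of 351 (188 and 163) that lay 22000 bp from the nearest TSS. Gug, the fly Atrophin corepressor, had 345 (231 and 116), the most unequal of these. Others of the top 20 were in CG6959 (280), the cyclin-dependent kinase gene Eip63E (279), the histone H3 kinase gene JIL-1 (273), CG32264 (263), Hr4 again (254), the corepressor gene sbb (253) and the SET-domain gene upSET (242). The last ones were in Su(Tpl) and Mi-2, which overlap (239), S (233), aos with CG33158 (230), CG8034 (224) and the Polycomb gene Psc (223). Mi-2 is a nucleosome remodeller, S helps to process the ligands of the epidermal growth factor receptor, and aos encodes a secreted inhibitor of that receptor.

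Host genes were counted next. The peaks lay in 411 genes, 400 of them protein-coding, with 601 peaks inside a single gene and 47 inside several nested or overlapping genes. Of the 4229 protein-coding genes with any far intronic sequence, these 400 are 9.46%. Replicate 1's own list gave 294 such hosts and replicate 2's gave 229. Hosts were long, with a median length of 31.1 kb against 8.87 kb for all candidates, and the share of genes that held a peak rose from 2.21% of those with up to 5 kb of far intronic sequence to 38.1% of those with over 50 kb. A single peak was found in 251 hosts, 2 in 90 and 3 or more in 70, and those 70 held 249 of the peaks. The gene of the tagged protein, CG5953, held none in its 11.4 kb of far intronic sequence.

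First introns held most of the peaks. An intron that comes first in at least 1 transcript contained 397 of the 648 summits (61.3%, exact 95% interval 57.4 to 65.0), while such introns make up 37.2% of far intronic territory. The share was 60.8% in replicate 1's own list and 60.1% in replicate 2's. The introns were long, at a median of 18.3 kb (quartiles 9.09 and 35.3). Summits lay a median of 11.6 kb from the 5′ end of the host, or 41.1% of the way along it. The nearest TSS belonged to the host itself for 421 peaks (65.0%), and to another gene for the rest.

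Hosts also had promoter peaks more often than other genes with far introns. A conservative summit lay within 500 bp of a TSS of 103 of the 400 hosts (25.8%, exact 95% interval 21.5 to 30.3), against 571 of 3829 non-hosts (14.9%) and 15.9% of all candidates. The share was 15.6% in replicate 1's own list and 19.7% in replicate 2's, or 17.6% ± 2.83 (SD, n = 2), with 10.3% and 9.90% of non-hosts in the same lists. Length moved with this: among genes with over 50 kb of far intronic sequence the shares were 35.9% of 64 hosts and 6.73% of 104 non-hosts, and among those with up to 5 kb they were 19.4% of 62 and 15.2% of 2747. No test was made. The share depended on how many peaks were counted: it was 10.5% of hosts and 6.94% of non-hosts when only peaks in both replicates' lists were used, a choice made after seeing the data.

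Several hosts carried a series of peaks. The gene with the most was ush, which encodes a zinc-finger cofactor of GATA factors. Its 10 peaks, at 9 separate loci, spanned 37.4 kb, and every one lay in a first intron. They formed a cluster 7.25 to 9.66 kb from the 5′ end, with a highest signal of 187 (78.2 in replicate 1 and 109 in replicate 2), and another from 34.5 to 44.6 kb, ending with the strongest at 196 (95.03 and 96.2). The own lists held 4 of its peaks in replicate 1 and 3 in replicate 2.

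Raf had 7 peaks over 20.8 kb, of which replicate 1's own list held 7 and replicate 2's held 5. Hr4 had 7 over 39.97 kb (5 and 4 in the own lists) and sbb had 7 over 20.8 kb (6 and 5). In sbb, 4 peaks with signals of 253, 184, 217 and 110 stood between 18.8 and 23.9 kb from the 5′ end, in all 4 cases in both lists. The adhesion gene kirre, which acts in muscle founder cells, had 7 peaks at 6 loci over 323 kb. The nuclear receptor gene ftz-f1 had 6 peaks with a highest signal of 107, of which replicate 1's list held 4 and replicate 2's list 1.

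Genes with 5 peaks each were rdx, an adaptor for the degradation of Cubitus interruptus, lncRNA:CR44357, the Ski family gene Snoo, the guidance cue gene NetA, sick, the Rap1 regulator gene RapGAP1, wake and the scaffold gene Spn. In Spn all 5 lay within 2.24 kb at 3 loci, and 2 had signals of only 5.99 and 5.88. For wake, replicate 1's own list held 1 and replicate 2's none. Peaks were often close together in general, with another far intronic summit within 5 kb of 234 members (36.1%).

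**Figure D3:**
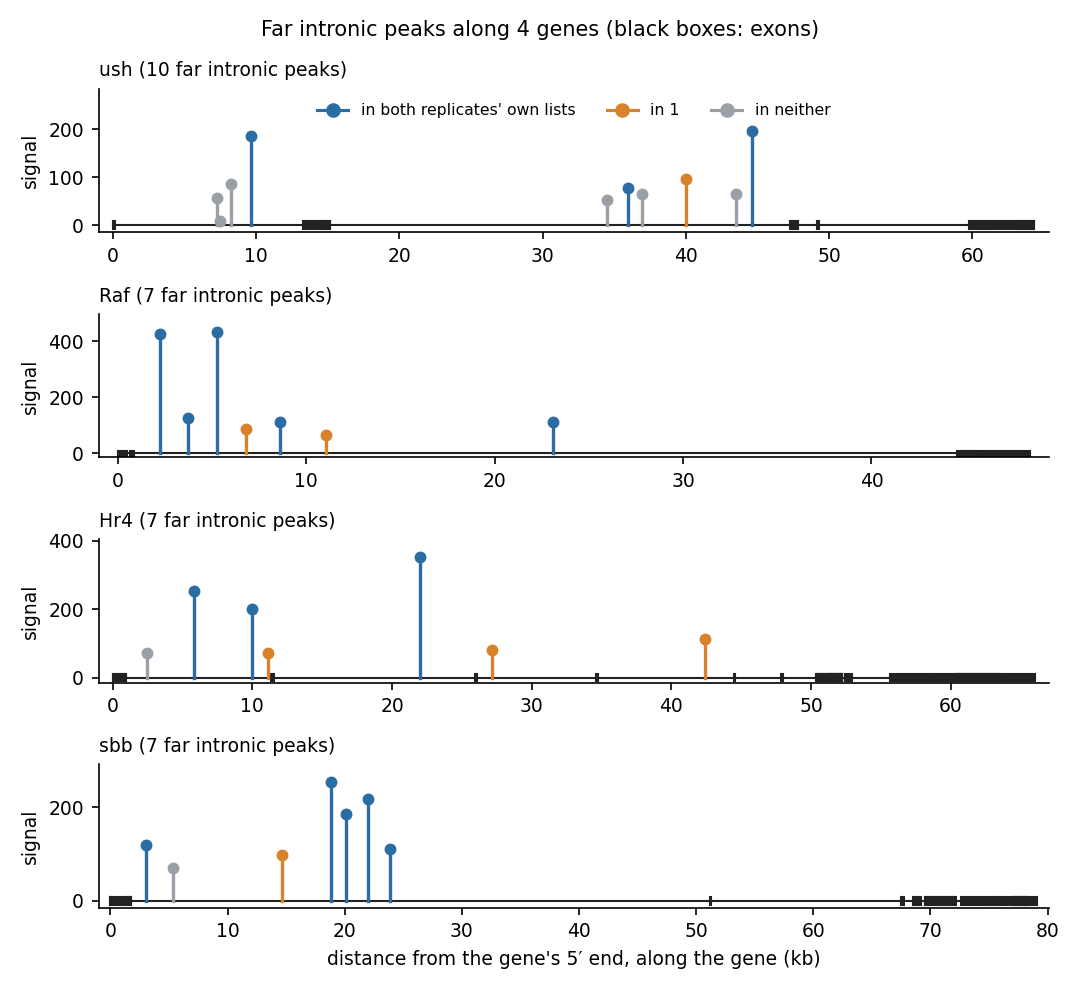
Far intronic peaks along ush, Raf, Hr4 and sbb, by distance from the gene's 5′ end (kb) and signal (authors' value). Black boxes are exons of any transcript, and colour shows whether both, 1 or neither replicate's own list holds the peak. The 2 tall peaks of Raf, at 427 and 431, stand 2.26 and 5.25 kb from its 5′ end.

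Ecdysone and nuclear receptor genes were the list with the highest share of hosts. Among 10 lists of genes by role, chosen with earlier results of these data known, 9 of the 20 members with far intronic sequence held a peak (45.0%, exact 95% interval 23.1 to 68.5), against the 9.46% of all such protein-coding genes, and 8 and 6 in the replicates' own lists. The list had 50.3 peaks per Mb of far intronic sequence, where all far intronic territory had 15.3. Its leading members were Hr3 (2 peaks, highest signal 463), Hr4 (7, 351), Eip75B (3, 145), another nuclear receptor, and the transporter gene E23 (2, 145). Length has to be read beside these shares, since 32.6% of the 579 protein-coding genes with over 20 kb of such sequence were hosts, and 6 of the 8 in this list were.

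Genes of signalling receptors and ligands followed, with 18 of 50 (14 and 8 in the own lists) and 35.6 peaks per Mb. They included S (2 peaks, highest 233), aos (1, 230), the receptor gene N, or Notch (1, 206), and the Wnt receptor gene fz (3, 172). Of the transcription factors of neural and mesodermal fate other than homeodomain, 26 of 76 (34.2%; 18 and 14) were hosts, with 28.02 peaks per Mb. Among them were aop, an ETS repressor downstream of receptor tyrosine kinases (1, 170), and the epidermal factor gene grh (1, 138). The repressor gene cic (3, 127) and the muscle factor gene Mef2 (1, 123) were others. The name of this list is loose, since its hosts include genes of wider roles, such as E2f1 and Myc. They also include mirr, which is counted in the list of Hox and homeodomain genes too. Kinases and small GTPase regulators had 16 of 51 (31.4%; 12 and 7), with Raf, mnb (1, 222), the Misshapen kinase gene msn (3, 191) and Pka-C3 (1, 136). In all 3 lists replicate 2's own list gave fewer hosts than replicate 1's.

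The list of Hox and homeodomain genes had 12 hosts among 50 (24.0%, with 6 and 5 in the own lists) and 19.7 peaks per Mb. The strongest were in hth (148.1), Lim1 (105), the Hox gene Antp (103) and bab1 (88.96). Its 12 hosts include bab1 and bab2, which are not homeodomain genes, so its name describes its members only loosely. RNA-binding genes had 7 of 30 (23.3%; 6 and 4) but 7.02 peaks per Mb, and the strongest were in how (129), bru2 (110), Rbfox1 (106) and heph (105). Of these, heph has 131 kb of far intronic sequence. Cytoskeleton and muscle genes had 10 of 56 (17.9%; 5 and 5) and 22.2 peaks per Mb. Among these hosts were the polarity genes sdt (104), aPKC (99.4) and crb (75.4), and Fhos (85.8).

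No test was made between lists. Axon guidance and adhesion genes had 18 hosts among 123 (14.6%; 11 and 9) and 9.82 peaks per Mb, although 69 of the 123 had over 20 kb of far intronic sequence, of which 15 were hosts. The strongest peaks were in babos (195), kirre (175), Fas3 (154) and NetA (134). The list of ion channel and transmitter receptor genes had 5 of 73 (6.85%, with 5 and 3 in the own lists) and 3.58 peaks per Mb. Its leading hosts were bves (159), Ca-beta (96.6), Ih (89.4) and Shal (67.7), of which bves is itself neither a channel nor a transmitter receptor gene. Only 2 of the 29 listed members with over 20 kb were hosts. Chromatin regulator genes had 4 of 49 (8.16%; 3 and 4), namely Mi-2 (239), Psc (223), trx (122) and tou (68.8). Their far intronic sequence came to only 0.188 Mb, at a median of 0.715 kb per gene, and its 5 peaks make 26.6 per Mb.

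**Figure D4:**
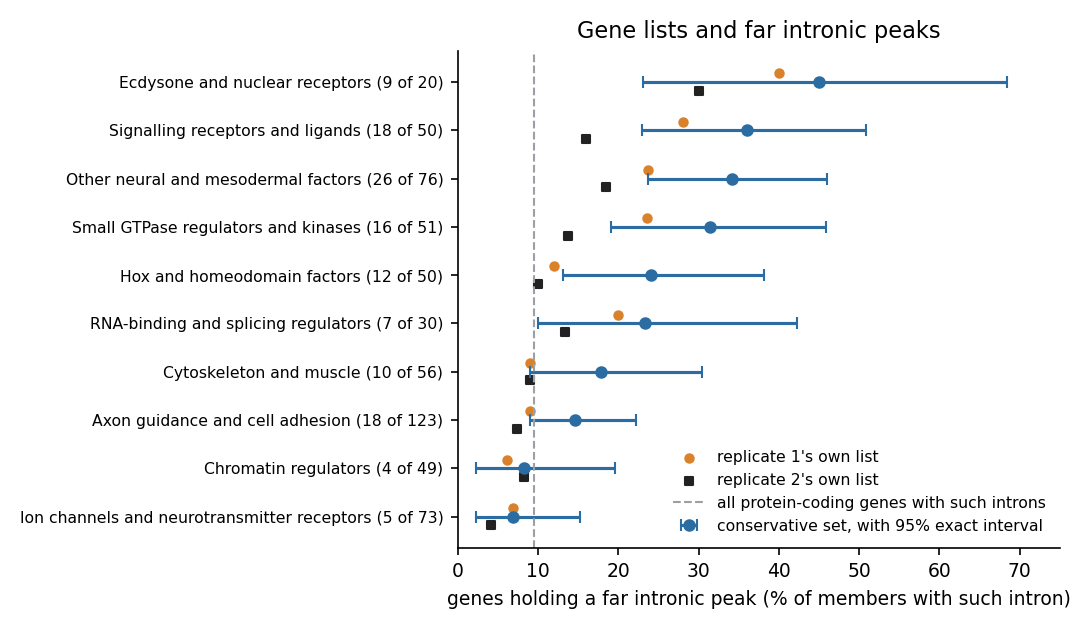
Share of the genes of each list with far intronic sequence that held a far intronic peak (%), with the exact 95% interval, for the conservative set and for each replicate's own list. The dashed line is the 9.46% of all protein-coding genes with such introns; the list of ecdysone and nuclear receptor genes is at 45.0% and that of ion channel genes at 6.85%.

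The sequence under the summits was AT-rich. GC content averaged 36.8% within 50 bp of far intronic summits, rose to 44.1% at 100 to 200 bp and returned to 40.3% at 900 to 1000 bp. The dip was 33.3% in replicate 1's own list and 36.7% in replicate 2's, against 44.8% and 44.5% at 100 to 200 bp. Near intronic (35.5%), promoter (38.1%) and intergenic summits (38.4%) had a dip too. Of the 648 peaks, 624 have 1 and the same width with the summit exactly in its middle, and sonicated fragments were 200 to 800 bp long, so a summit can be placed only roughly.

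Motifs of promoter factors were rarer at far intronic than at promoter peaks. Each of 34 motifs was counted on both strands within 100 bp of the summit, and 4 (11.8%) differed from promoter peaks at an adjusted p under 0.05, all 4 being rarer in far intronic peaks (two-sided Fisher's exact test, adjusted over 68 comparisons). The promoter element called Motif 7 was in 4.94% of far intronic and 16.2% of promoter peaks (adjusted p = 3.1e-12, Fisher's exact test). TATCGATA, the site of the replication-related factor DREF, was in 0.309% and 4.76% (7.6e-08), GGTCACAC, the core of the M1BP site, in 0.463% and 3.15% (0.00094), and CGATA, a core of the insulator protein BEAF-32, in 21.9% and 30.3% (0.0013). CGATA is contained in TATCGATA, so these counts overlap. Around all 23358 annotated TSS the shares were 12.6% for Motif 7, 5.47% for TATCGATA, 4.76% for GGTCACAC and 34.6% for CGATA. Over windows of the same length tiled across all far intronic territory they were 5.49%, 0.435%, 0.302% and 20.2% in the same order. The classes are set by distance from a TSS, so the test cannot separate binding by CG5953-eGFP from where these elements lie. Against near intronic peaks none of the 34 passed (0%), and 2 had an unadjusted p under 0.05.

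The shares were also set beside a census of windows of the same length tiled over all far intronic territory, 222385 in all, with no test. The forkhead-type word TGTTTAC was in 7.56% of far intronic peaks (exact 95% interval 5.65 to 9.87), 8.17% and 8.25% in the replicates' own lists, and 4.01% of windows, or 4.26% after weighting the windows to the GC content of the peaks. It was in 8.14% of near intronic and 6.15% of promoter peaks. GAGAG, bound by GAGA factor, was in 26.5% of peaks, 21.5% of windows and 20.4% after the same weighting. It was in 28.8% of near intronic and 26.4% of promoter peaks. Lower than in the windows were GCCAT, the core of the site of the Polycomb recruiter Pho, at 30.7% against 35.7%, and AGGATAA, of the repressor Tramtrack, at 0.617% against 2.25%. After the weighting the windows had 33.8% and 2.30%, and 33.8% lies inside the exact 95% interval for GCCAT in peaks (27.2 to 34.4). GCCAT was in 26.0% of near intronic and 27.6% of promoter peaks, and AGGATAA in 0.698% and 1.54%. A match is a description of the letters and shows no binding by these factors.

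The words CACTGAG and CAGTGCA stood near some summits, more often beside them than under them. Words of 7 bases were ranked by their excess within 50 bp of the summits on arms 2L, 2R and X, and the leading words were GTCAATA, then CACTGAG, then CAGTGCA. On arms 3L, 3R and 4, which had not been used to choose them, they were in 2.21%, 1.11% and 3.32% of 271 peaks within 50 bp, against 1.21%, 0.86% and 1.51% of windows. CACTGAG behaved otherwise a little further out. Within 100 bp CACTGAG was in 56 of the 648 far intronic peaks (8.64%, exact 95% interval 6.59 to 11.1), which include the peaks used to choose it. On the arms not used it was in 16 of 271 (5.90%, exact 95% interval 3.41 to 9.41), and on the arms used in 10.6%. It was in 11.3% and 8.58% of far intronic peaks in the own lists of replicates 1 and 2, and in 1.79% of windows. It was in 5.12% of near intronic, 4.69% of promoter and 9.76% of intergenic peaks. The rest of its pattern was looked at after these values were seen, and is given without a test.

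Counted by the position of its middle, CACTGAG occurred 16 times within 50 bp of the 648 summits. It occurred 47 times between 50 and 100 bp, outside the range in which it had been found. Its density over all far intronic territory gives 5.92 for each of these ranges. On the arms not used to choose the word it occurred 17 times between 50 and 100 bp, where that density gives 2.48. Between 200 and 300 bp it occurred 12 times, against 11.8 by the same density. The ring at 50 to 100 bp was present in both replicates, with 40 occurrences around replicate 1's summits and 23 around replicate 2's, where 3.80 and 2.77 would stand. Other classes had this ring too, with 28 occurrences at intergenic, 46 at promoter and 16 at near intronic summits. The same far intronic density gives 3.75, 12.5 and 3.93 there. Strong peaks had the word more often, at 16.05% of far intronic peaks in the highest quartile of their own signals and 5.56% in the lowest.

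The bases after CACTGAG were not mixed. Within 150 bp of far intronic summits, 54 of its 78 occurrences (69.2%, exact 95% interval 57.8 to 79.2) had the run AAA within the next 5 bases, against 28.05% of its 3875 occurrences over far intronic territory. At the base before the word G stood in 51.3% and A in 42.3%, and at the base before that T in 61.5%. The 3′ side of the word, where that run lies when present, pointed towards the summit in 70 of the 78 (89.7%), in 65 of 70 in replicate 1's own list and in 40 of 42 in replicate 2's. AAA followed in 73.5% of 34 occurrences in near intronic, 72.5% of 51 in intergenic and 43.8% of 89 in promoter peaks, and the 3′ side pointed to the summit in 29 of 34, 39 of 50 and 66 of 89, leaving out 1 occurrence at an intergenic summit. In the sequences printed above, the CG6959, ush, aop and bves sites show the word followed by agaaa.

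**Figure D5:**
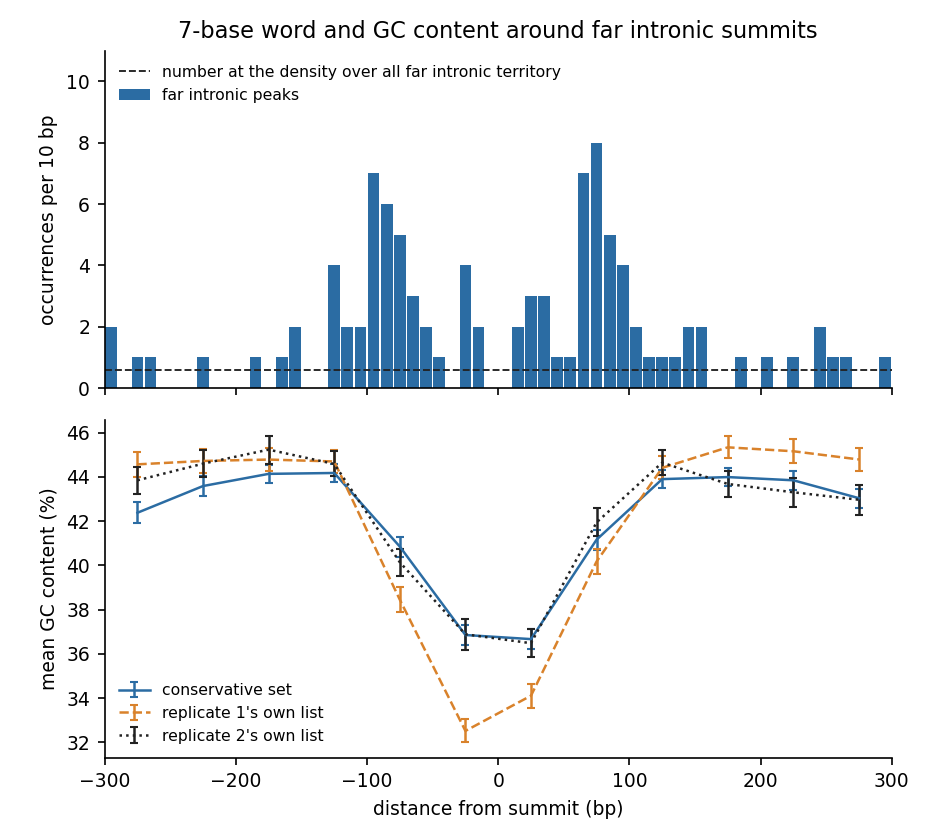
Above, occurrences per 10 bp of a 7-base word around the 648 far intronic summits, with a dashed line at its density over all far intronic territory. Below, mean GC content (%) in steps of 50 bp, with the standard error over peaks, for the conservative set and each replicate's own list. The word is most frequent 50 to 100 bp to either side of the summit, and GC content is lowest at the summit.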

How the data were processed

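ChIP-seq of CG5953-eGFP was analysed from peak lists of 2 biological replicates of fly embryos. The authors deposited, for each peak, a position on dm6 and a signal value of unstated unit. Per the labels of the deposited files, the lists were ranked and thresholded by the irreproducible discovery rate. No aligner or peak caller is named in these sources. The conservative list was the main set, and 1 of its 3016 peaks, on an unplaced scaffold, was left out.

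Summits were placed on the Ensembl annotation (release 115), without transposable elements and pseudogenes, and on the Release 6 sequence. Territory was counted base by base. Scripts in Python 3.11.15 used numpy 2.4.6, pandas 2.3.3, scipy 1.17.1, statsmodels 0.14.6 and matplotlib 3.10.9. They were tested on simulated data. Intervals are exact (Clopper-Pearson, 95%) and cover counting error only. Differences between classes of peaks were tested with Fisher's exact test and Benjamini-Hochberg adjustment. Peaks of a sample are not replicates.

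Named genes were CG5953, the hosts of the 20 strongest peaks, the 15 hosts with the most peaks, and up to 4 members per gene list by signal. The result for 1 of these hosts is not reported here. Of 732 list symbols, 720 were found. The rule on peaks, the lists and the motifs were chosen with earlier results of these data known. Alternatives were other distances and start sites, the optimal list, each replicate's own list, stronger peaks, other windows and overlaps, peaks in both own lists and merged overlapping peaks. The last 2 were chosen after seeing the data.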

Additional observations from a re-analysis of the deposited data

How the results depend on the processing

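The limits are the 2 libraries, the unknown depth, the unstated unit of signal and the missing control. No paired analysis was possible because there is 1 group of samples. With a limit of 1000 bp from a TSS the far intronic share was 29.0%, and with 5000 bp it was 11.5% (348 peaks). It was 19.1% among peaks in both replicates' own lists. Using each replicate's own list in place of both libraries gave 303 to 416 far intronic peaks, a share of 18.3 to 21.1%, and promoter peaks at 15.6 to 19.7% of hosts. That last share was 29.6% with the optimal list, 13.4% with peaks at or above the median signal, 10.5% with peaks in both own lists, and 19.8% and 35.5% with promoter windows of 250 and 1000 bp. It was above the share of non-hosts in each of these. The motifs differing from promoter peaks numbered 7 with the optimal list, 2 with peaks at or above the median signal, and 2 and 8 with windows of 50 and 200 bp. At 200 bp, 2 motifs differed from near intronic peaks. Among peaks at or above the median signal, the both-list differences were −0.959 points from near intronic (adjusted p = 0.84) and −3.68 points from promoter peaks (adjusted p = 0.31, Fisher's exact test). Merging overlapping peaks, or counting transposable elements and pseudogenes, changed no main count by over 1.5 times. The causes were not tested.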
